A study of Mus musculus with 2 samples.

Results

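The genes described here are 32 mouse genes of glucose breakdown and of the transcriptional response to low oxygen, chosen by name. All 32 were in the deposited table of 24866 genes, and all 32 passed the low-count filter of the test. They fall into 6 roles: glucose transport and the first steps of glycolysis (8 genes), the steps from aldolase to pyruvate kinase (9 genes), the lactate branch with pyruvate dehydrogenase kinase (3 genes), oxygen sensors (2 genes), mitochondrial genes induced by low oxygen (5 genes), and secreted and other hypoxia targets (5 genes). They were measured as RNA counts in single femur cells of 2 C57/B6 mice from 1 litter at postnatal day 6, both of genotype CTSK-cre+ mTMG, with no second genotype and no treatment. In such mice Cre is driven by the promoter of cathepsin K, a protease gene best known from osteoclasts, and cells that have made Cre are permanently switched to a membrane green fluorescent protein. A sorted cell therefore has, or descends from a cell that had, active Cre, and the sort says nothing of the cell's present Ctsk level. Animal 1 was sorted into plate 47 and animal 2 into plate 48, so that animal and plate cannot be told apart.

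Glycolysis turns glucose into pyruvate in the cytosol. Lactate dehydrogenase A converts pyruvate to lactate when it is not burned in mitochondria, and pyruvate dehydrogenase kinase 1 holds pyruvate back from the mitochondria. When oxygen is scarce, prolyl hydroxylases no longer mark the hypoxia-inducible factor (HIF) alpha subunits for destruction, and HIF raises many glycolytic genes together with genes that restrain mitochondrial respiration. The growth plate cartilage of young bone has no blood vessels, and its chondrocytes are known to depend on HIF-1 and on glycolysis.

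HIF binds DNA at a short core, ACGTG or GCGTG. The 250 bases before each annotated RefSeq transcription start (GRCm38.p6) were searched for both letter strings on both strands. A start window was found for 28 of the 32 genes, 41 windows in all, and 32 of the 41 windows (78.0%) held a core, against 38.6% of 32851 windows of all genes. With ACGTG alone the shares were 43.9% and 16.6%. Some windows of Eno1, Aldoa and Pfkm overlap and hold the same core. Counted by gene, 25 of 28 (89.3%) had a core of either kind, against 41.5% of 27025 genes. The list was chosen in part for the response to low oxygen, so a raised share follows from the choice and is no finding of these data. The windows of the 28 genes were also richer in G and C, with a median of 61.6% against 52.4%, and the part of base composition in the difference was not tested. A match describes letters and is not a site of binding. The 4 stretches below were picked for holding cores: those of Fam162a, Ldha and Eno1 belong to genes called in a class, and that of Bnip3 to another mitochondrial gene. Pkm, also called in a class, is not shown, since its windows hold 0 cores outside annotated exons. Each is written 5′ to 3′ on the strand of its gene, with cores in capitals on either strand, and is cut to bases outside every exon of GENCODE M21. They lie at chr16:36071595-36071684 (minus strand, before Fam162a), chr7:46845554-46845803 (plus strand, before a RefSeq start of Ldha that lies inside the GENCODE gene), chr4:150236458-150236707 (plus strand, before the first of the Eno1 starts) and chr7:138909520-138909756 (minus strand, before Bnip3).
Fam162a: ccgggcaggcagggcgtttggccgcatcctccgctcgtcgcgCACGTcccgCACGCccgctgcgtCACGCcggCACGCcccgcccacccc
Ldha: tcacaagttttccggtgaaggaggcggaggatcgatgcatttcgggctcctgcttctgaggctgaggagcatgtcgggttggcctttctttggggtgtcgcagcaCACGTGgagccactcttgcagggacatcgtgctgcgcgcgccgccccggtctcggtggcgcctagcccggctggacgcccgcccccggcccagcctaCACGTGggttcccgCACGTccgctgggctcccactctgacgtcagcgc
Eno1: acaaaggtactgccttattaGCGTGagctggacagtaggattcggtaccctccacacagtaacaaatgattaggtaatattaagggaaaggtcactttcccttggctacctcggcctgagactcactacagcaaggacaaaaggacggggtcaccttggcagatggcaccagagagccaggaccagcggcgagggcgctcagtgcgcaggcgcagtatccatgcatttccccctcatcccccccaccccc
Bnip3: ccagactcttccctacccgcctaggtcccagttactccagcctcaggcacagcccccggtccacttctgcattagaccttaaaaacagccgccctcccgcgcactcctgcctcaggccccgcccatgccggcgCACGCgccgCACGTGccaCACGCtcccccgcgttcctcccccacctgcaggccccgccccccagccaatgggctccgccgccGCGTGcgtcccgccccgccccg
The Fam162a stretch of 90 bases held 4 cores. The Ldha stretch held 5 matches to ACGTG, of which the CACGTG letters give 1 on each strand. The Eno1 stretch held 1 core, and the Bnip3 stretch held 5.

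Of 658 wells, 653 were kept (318 of animal 1 and 335 of animal 2), and the other 5 had 26.7% to 94.2% mitochondrial counts. Kept wells held 9767 to 675621 counts, with medians of 101207 and 119126 counts and of 2185.5 and 2177 genes in animals 1 and 2. Both plates use the same 95 well barcodes, and 0 pairs of kept wells held identical counts. Wells were grouped into 9 classes from marker genes that include none of the 32 genes. The named classes were periosteal fibroblast-like (class 1, 73 and 76 wells in animals 1 and 2), chondrocyte-like (class 2, 70 and 66), tendon and ligament-like (class 4, 47 and 36), osteoblast-like (class 7, 10 and 7) and pericyte and smooth muscle-like (class 8, 12 and 4). Class 3 (32 and 74 wells), 10.1% of the wells of animal 1 and 22.1% of those of animal 2, was led by Cytl1 and Prg4 and stayed unnamed. It held 17391 CPM of chondrocyte markers in sum, CPM being counts per 1000000 counts of the class and animal. Class 5 (35 and 47) was led by Mmp9, Matn4, Spp1 and Ibsp, and class 6 (36 and 18) by Alpl, Mmp13 and S100a8, followed by Aspn and Sp7. Class 5 held 5812 CPM of chondrocyte markers, against 34040 CPM in the chondrocyte-like class. It held 4214 CPM of osteoblast markers, against 22692 CPM in the osteoblast-like class. Class 6 held 11398 CPM of periosteal fibroblast markers, against 13921 CPM in the fibroblast-like class, and 1981 CPM of osteoblast markers, against 385 CPM. Both classes stayed unnamed, as did class 9 (3 and 7). The labels call all cells mesenchymal, and markers of blood, vessel and bone-resorbing cells were low. Osteoclast markers summed to 10.3 to 157 CPM, macrophage markers to 4.51 to 39.4 CPM, endothelial markers to 0.254 to 23.2 CPM and erythroid markers to 4.94 to 11.6 CPM in classes 1 to 6. Classes 1 to 6 had at least 10 wells in each animal and entered the test.

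The 32 genes together were lowest in the periosteal fibroblast-like class among the 6 tested classes and highest in the chondrocyte-like class and the unnamed classes 3 and 5. Their summed level in animals 1 and 2 was 2095 and 2358 CPM in the fibroblast-like class. It was 4662 and 5360 CPM in the chondrocyte-like class, 4776 and 5530 CPM in class 3, and 6024 and 5169 CPM in class 5. The tendon and ligament-like class lay between, at 2487 and 3615 CPM, and class 6 at 2579 and 2862 CPM. In each animal the fibroblast-like class was therefore below all 5 others, and classes 2, 3 and 5 were above classes 1, 4 and 6. Against the mean of the other classes, the log2 ratio was -0.95 ± 0.03 (SD, n = 2) in the fibroblast-like class, 0.42 ± 0.06 in the chondrocyte-like class, 0.47 ± 0.07 in class 3, -0.47 ± 0.33 in the tendon and ligament-like class, 0.62 ± 0.33 in class 5 and -0.63 ± 0.01 in class 6. Classes 2, 3 and 5 stood at 5011 ± 493, 5153 ± 533 and 5597 ± 604 CPM (SD, n = 2) and did not differ beyond their spread over animals. Within animals class 3 was above class 2 in both, while class 5 was above them in animal 1 and below them in animal 2. The log2 ratio of the tendon and ligament-like class was 0.000475, practically no difference, when wells were assigned by marker score, so its lower level depends on the assignment. Because the 32 genes were assembled as 1 module, their sum has no test.

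**Figure D1:**
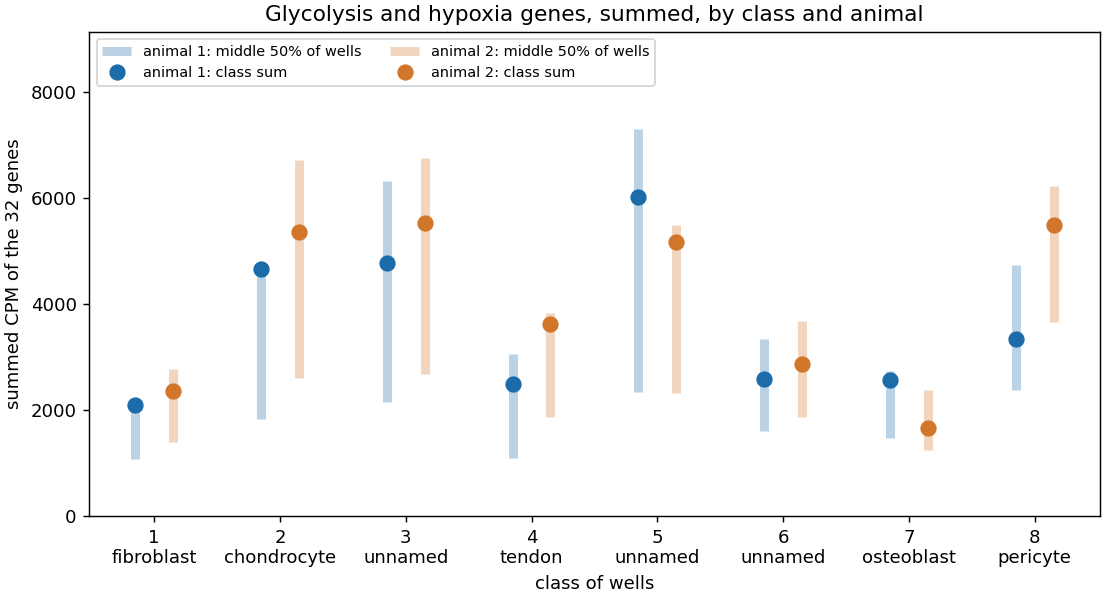
Summed CPM of the 32 genes (y axis) in 8 classes of wells (x axis), with a dot for each animal's class sum and a bar for the middle 50% of its wells. The fibroblast-like class sits at 2095 and 2358 CPM, below classes 2, 3 and 5 at 4662 to 6024 CPM, and the bars of wells overlap between classes.

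The direction held in most parts of the plates. Well names give 4 quadrants a plate, and the sum was lower than in the other classes in 8 of 8 quadrants for the fibroblast-like class, at 0.412 to 0.633 of their level. It was higher in 8 of 8 quadrants for the chondrocyte-like class and for class 3, but in 4 of 7 for class 5. It was lower in 7 of 8 quadrants for the tendon and ligament-like class and in 5 of 6 for class 6. The 6 abundant enzymes Gapdh, Aldoa, Eno1, Pkm, Tpi1 and Ldha supplied 52.4% to 72.5% of the module's counts in classes 1 to 6. Without them class 6 stood lowest at 749.7 ± 51.1 CPM, within the spread of the fibroblast-like class at 771 ± 65.7 CPM. Within each animal class 6 was the lower, at 714 and 786 CPM against 725 and 818 CPM. Class 5 stood at 2571 ± 419 CPM.

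Genes that answer to tissue dissociation shared 1 split with the module, with classes 2, 3 and 5 above classes 1, 4 and 6 in each animal. Their order within these groups was another: the lowest mean sum was that of class 6 and the highest that of class 3. The 22 immediate-early and heat-shock genes, all 22 with counts in each of classes 1 to 6, summed to 6747 CPM in the fibroblast-like class, 14054 CPM in the chondrocyte-like class, 15544 CPM in class 3, 5681 CPM in the tendon and ligament-like class, 10603 CPM in class 5 and 5109 CPM in class 6. Their part in the module's differences was not tested. Among classes 1 to 6, median mitochondrial shares were lowest in the fibroblast-like class in both animals, at 2.88% and 2.85%. They were highest in the tendon and ligament-like class, at 4.21% and 4.42%, and their part was not tested either.

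Tested gene by gene with edgeR's quasi-likelihood test, 3 of the 32 genes were called in the fibroblast-like class, all lower (Fam162a, Ldha and Pkm), where 2.23% of all 13552 genes were called, 1.19% higher and 1.04% lower. In the chondrocyte-like class 1 of 32, Eno1, was called higher, where 0.952% of all genes were called, 0.561% higher and 0.391% lower. No gene of the 32 was called in class 3, where 0.295% of all genes were called (0.162% higher and 0.133% lower), or in the tendon and ligament-like class, where 0.384% were (0.332% higher and 0.0517% lower). The same held in class 5, where 0% were called, and in class 6, where 0.118% were (0.0812% higher and 0.0369% lower). At an unadjusted p under 0.05 the edgeR counts were 12, 10, 8, 6, 11 and 6 of 32 in classes 1 to 6, where 13.7%, 10.2%, 8.4%, 9.45%, 7.64% and 9.45% of all genes were under it. DESeq2 called 9, 3, 2, 1, 3 and 5 of the 30, 30, 30, 30, 30 and 27 genes that it gave an adjusted p, where it called 5.99%, 4.28%, 3.47%, 4.32%, 2.11% and 6.27% of all such genes. The fitted median log2 fold change over the 32 genes was -0.67 in the fibroblast-like class against 0.31 over all genes. It was 0.66 against 0.22 in the chondrocyte-like class, 0.64 against 0.08 in class 3, -0.33 against -0.05 in the tendon and ligament-like class, 0.72 against 0.03 in class 5 and -1.09 against -0.08 in class 6. Above 0 were 13, 24, 27, 10, 27 and 7 of the 32. On plain CPM ratios, with genes at 0 counts in both animals set at their limit, the medians of the 32 were -0.84, 0.29, 0.42, -0.56, 0.34 and -1.15, against 0.08, -0.13, -0.17, -0.28, -0.15 and -0.17 over all genes tested. All 4 class calls were lost in a fit that took in the 2 smaller classes described below. An F test of any difference among the 6 classes called 4 of the 32, Fam162a (edgeR adjusted p = 0.0176), Eno1 (0.0277), Ldha (0.0321) and Ndufa4l2 (0.0351), where 1.44% of all genes were called. Fam162a no longer passed this F test with classes of at least 4 wells (adjusted p = 0.0840), nor did Eno1 there (0.0783) or with wells assigned by marker score (0.0909). Ldha no longer passed with classes of at least 4 wells (0.476), by marker score (0.412), without the animal block (0.405), without the low-count filter (0.0616) or without the top well of each gene (0.0882). Tpi1, Higd1a, Pkm and Gapdh came next at adjusted p = 0.0637, 0.0663, 0.0669 and 0.0900.

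**Figure D2:**
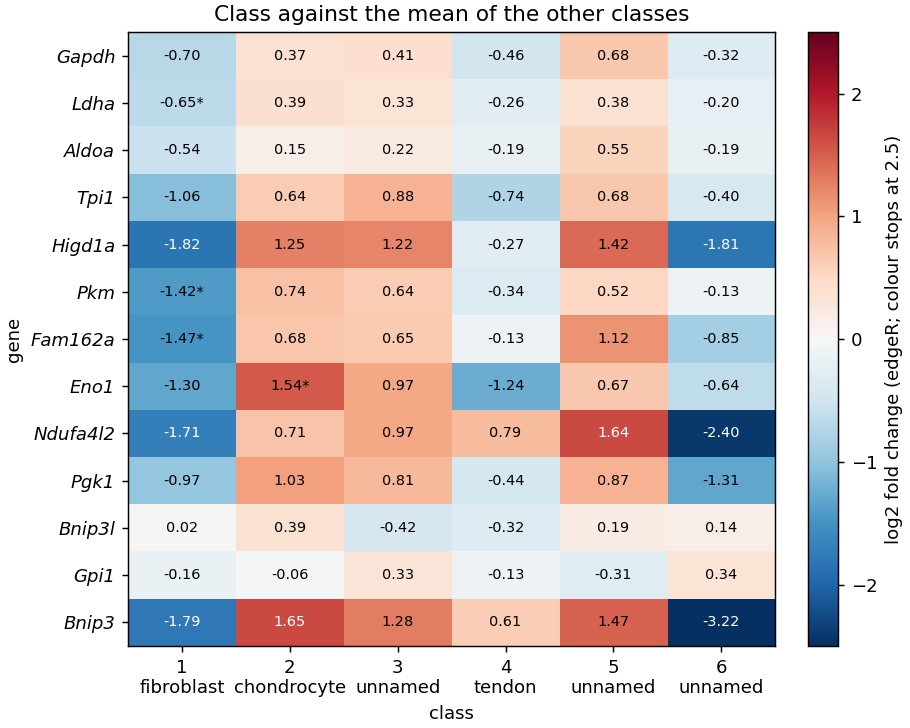
Fitted log2 fold change of each of 6 classes (x axis) against the mean of the others for the 13 genes seen in over 30% of wells (y axis), as colour and number, with a star at an adjusted p under 0.05. Stars stand at Fam162a (-1.47), Ldha (-0.65) and Pkm (-1.42) in the fibroblast-like class and at Eno1 (1.54) in the chondrocyte-like class.

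Glucose transport and the first steps of glycolysis showed no call in any of the 6 classes. At an unadjusted p under 0.05 edgeR gave 1, 1, 0, 1, 0 and 1 of 8, and DESeq2 called 1, in class 6. The 8 genes summed to 153 ± 17.4 CPM (SD, n = 2) in the fibroblast-like class, 249 ± 17.98 CPM in the chondrocyte-like class, 267 ± 61.9 CPM in class 3, 170 ± 11.6 CPM in the tendon and ligament-like class, 184 ± 19.1 CPM in class 5 and 147 ± 4.45 CPM in class 6. Gpi1, which turns glucose 6-phosphate into fructose 6-phosphate, was seen in 35.7% of wells and ranged from 41.7 to 118 CPM over classes 1 to 6 and both animals, with no class above or below all others in both animals. Pfkl, the liver-type phosphofructokinase that commits sugar to glycolysis, was at 55.0 and 68.6 CPM in the chondrocyte-like class and 49.7 and 43.2 CPM in class 3, against 2.20 and 10.4 CPM in the fibroblast-like class and 11.4 and 0.889 CPM in class 6. Hk2, the hexokinase that HIF induces, was at 28.7 and 36.8 CPM in the chondrocyte-like class 4.91 and 4.10 CPM in the fibroblast-like class, and 5.01 and 0 CPM in class 6. Both stood higher in chondrocyte-like than in fibroblast-like wells of each animal. The fold against all other classes passed for neither. Slc2a1, the main glucose transporter of most cells, was seen in 7.81% of wells and Slc2a3, a second transporter, in 2.14%. Slc2a1 was at 0 and 1.33 CPM in class 6, where animal 1 had 0 counts, which allows up to 0.601 CPM, and animal 2 had 3 counts in 1 well. Slc2a3 had its highest values in the tendon and ligament-like class, 29.8 and 4.77 CPM, from 3 wells and 1 well. Hk1, Pfkp and Pfkm were each seen in 6.74% to 11.2% of wells.

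The steps from aldolase to pyruvate kinase held 2 of the 4 class calls, Pkm and Eno1. The 9 genes summed to 1026 and 1090 CPM in the fibroblast-like class of animals 1 and 2, 2008 and 2456 CPM in the chondrocyte-like class, 2189 and 2461 CPM in class 3, and 2564 and 2137 CPM in class 5. The tendon and ligament-like class held 1069 and 1429 CPM and class 6 held 1427 and 1500 CPM. Classes 2, 3 and 5 were above the other 3 in both animals.

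Pkm encodes the pyruvate kinase of most non-liver tissues, which makes the last ATP of glycolysis, and lies on chromosome 9 (59656368 to 59679375, plus strand, GENCODE M21 on GRCm38). Its level was 134.5 and 181.5 CPM in the fibroblast-like class, 417 and 579.5 CPM in the chondrocyte-like class, 434 and 534 CPM in class 3, 221 and 309.9 CPM in the tendon and ligament-like class, 470.3 and 438 CPM in class 5 and 357 and 277 CPM in class 6. The fibroblast-like class was the lowest of the 6 in both animals, with no overlap. The mean was 158 ± 33.2 CPM against 404 ± 34.0 CPM in the others (SD, n = 2), a log2 fold change of -1.42 ± 0.22 (SE, edgeR adjusted p = 0.0166), and Pkm was lower in 8 of 8 quadrants. The call was lost when wells were assigned by marker score (adjusted p = 0.302), with the skeletal and mural marker lists only (0.156) and with classes of at least 4 wells (0.237).

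Eno1, enolase 1, makes phosphoenolpyruvate and lies on chromosome 4 (150236721 to 150248879, plus strand). Its level was 208 and 297 CPM in the chondrocyte-like class, 152 and 222 CPM in class 3, 157 and 154 CPM in class 5, 75.1 and 75.6 CPM in class 6, 50.8 and 55.8 CPM in the fibroblast-like class and 34.7 and 67.6 CPM in the tendon and ligament-like class. The chondrocyte-like class was the highest of the 6 in both animals, and its wells with a count made up 74.3% and 93.9%, against 46.6% and 46.1% in the fibroblast-like class. The mean was 252 ± 63.0 CPM against 104.6 ± 14.96 CPM in the others, a log2 fold change of 1.54 ± 0.22 (SE, edgeR adjusted p = 0.0198), and Eno1 was higher in 8 of 8 quadrants. The call was lost when wells were assigned by marker score (adjusted p = 0.0692) and with classes of at least 4 wells (0.0530).

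Tpi1, which interconverts the 3-carbon sugars, was at 236 and 221 CPM in the fibroblast-like class, 554 and 553 CPM in the chondrocyte-like class, 667 and 645 CPM in class 3, 193.5 and 305 CPM in the tendon and ligament-like class, 686 and 492 CPM in class 5 and 267 and 393 CPM in class 6. The fibroblast-like class was the lowest for Tpi1 in animal 2 and the tendon and ligament-like class in animal 1. Gapdh, the enzyme that takes electrons from glyceraldehyde 3-phosphate and is often used as a reference gene, was at 149.9 and 172 CPM in the fibroblast-like class and 358 and 316 CPM in class 5, the lowest and the highest of the 6 in both animals. The log2 fold change of Gapdh was -0.70 ± 0.16 in the fibroblast-like class (edgeR adjusted p = 0.0820) and 0.68 ± 0.14 in class 5 (adjusted p = 0.302), and neither passed. Aldoa, aldolase A, ranged from 423 to 846 CPM over classes 1 to 6 and passed in none. Pgk1, phosphoglycerate kinase on the X chromosome, was lowest in class 6 in both animals, at 10.4 and 12.4 CPM, followed by 13.6 and 14.8 CPM in the fibroblast-like class and 11.6 and 23.6 CPM in the tendon and ligament-like class. In the chondrocyte-like class Pgk1 was at 33.5 and 48.6 CPM, in class 3 at 44.1 and 29.6 CPM and in class 5 at 45.1 and 31.6 CPM, and it passed in none. Pgam1 had 477 counts in all and stayed at or below 11.9 CPM. Near-identical processed copies of glycolytic genes such as Gapdh are known in the mouse genome. How reads shared with such copies were counted is not given in the sources used here, so the levels of the enzymes of this step and of Ldha are uncertain to that extent.

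**Figure D3:**
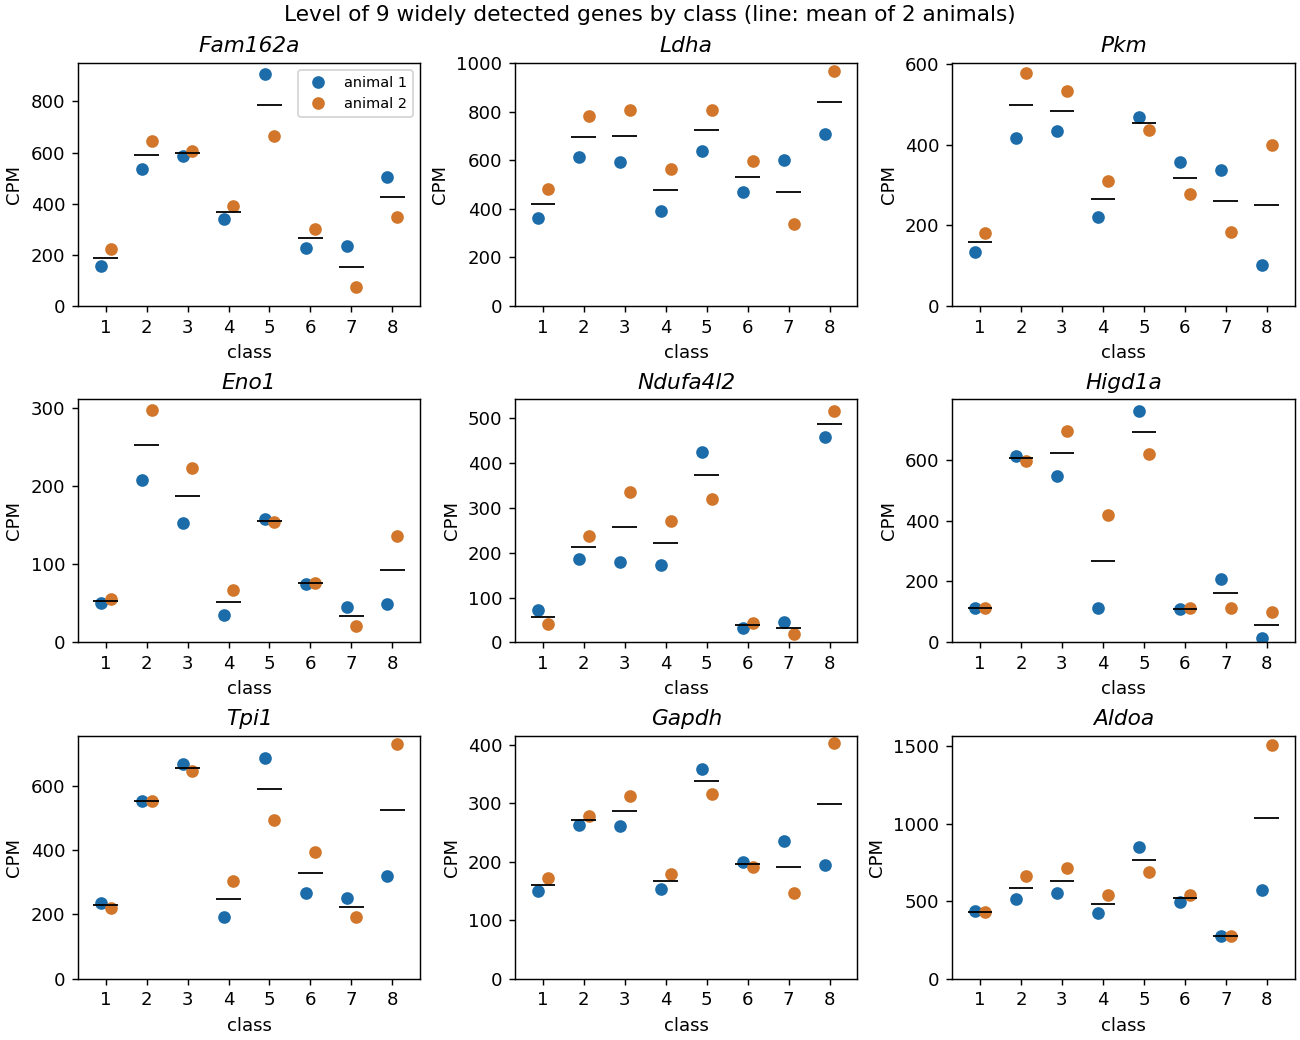
CPM (y axis) of 9 widely detected genes in 8 classes (x axis), with a dot for each animal and a line for the mean of both. In classes 1 to 6, Fam162a, Ldha and Pkm are lowest in class 1 in both animals and Eno1 is highest in class 2.

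The lactate branch was led by Ldha, which makes lactate from pyruvate and lies on chromosome 7 (46841475 to 46855627, plus strand). Ldha was at 363 and 481 CPM in the fibroblast-like class, 612 and 782 CPM in the chondrocyte-like class, 592 and 807 CPM in class 3, 392 and 566 CPM in the tendon and ligament-like class, 639.5 and 808 CPM in class 5 and 469 and 596 CPM in class 6. Within each animal the fibroblast-like class was the lowest, although the values of animal 2 there overlap those of animal 1 in other classes. The log2 fold change was -0.65 ± 0.09 (SE, edgeR adjusted p = 0.0142), at 422 ± 83.8 CPM against 626.5 ± 121 CPM (SD, n = 2), and Ldha was lower in 7 of 8 quadrants. The call was lost without the animal block (adjusted p = 0.184), with wells assigned by marker score (0.243) and with classes of at least 4 wells (0.326). Pdk1, the kinase that switches off pyruvate dehydrogenase, was at 9.56 and 24.9 CPM in the fibroblast-like class 22.6 and 1.33 CPM in class 6, and between 35.1 and 64.1 CPM in classes 2 to 5. Slc16a3, a lactate exporter, had 0.129 and 0.103 CPM in the fibroblast-like class, from 1 well in each animal, and 12.5 and 3.89 CPM in the chondrocyte-like class. Neither Pdk1 nor Slc16a3 passed the test in any class.

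Of the 5 mitochondrial genes 1, Fam162a, was called lower in the fibroblast-like class, and edgeR called 0 of 5 in classes 2 to 6 (unadjusted p under 0.05 for 3, 3, 1, 3 and 4; DESeq2 called 1, 1, 0, 3 and 4). Together they summed to 449 and 473 CPM in the fibroblast-like class and 466 and 534 CPM in class 6, against 1677 and 1759 CPM in the chondrocyte-like class, 1551 and 1886 CPM in class 3 and 2441 and 1851 CPM in class 5. The tendon and ligament-like class differed between the animals, with 769 and 1280 CPM.

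Fam162a is a HIF-induced mitochondrial protein linked to cell death and lies on chromosome 16 (36043761 to 36071594, minus strand). Its level was 155 and 222 CPM in the fibroblast-like class, 537 and 647 CPM in the chondrocyte-like class, 588 and 605 CPM in class 3, 341 and 392 CPM in the tendon and ligament-like class, 908 and 665 CPM in class 5 and 227 and 300.4 CPM in class 6. The fibroblast-like class was the lowest and class 5 the highest of the 6 in both animals. In the fibroblast-like class the mean was 189 ± 47.3 CPM against 521 ± 1.22 CPM in the others (SD, n = 2), a log2 fold change of -1.47 ± 0.19 (SE, edgeR adjusted p = 0.00976), and Fam162a was lower in 8 of 8 quadrants. The call was lost with classes of at least 4 wells (adjusted p = 0.236). In class 5 the log2 fold change of 1.12 ± 0.16 did not pass (adjusted p = 0.103).

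Ndufa4l2 is a HIF-1 target that lowers the activity of the respiratory chain under low oxygen and lies on chromosome 10 (127514967 to 127517154, plus strand). It was at 71.4 and 41.3 CPM in the fibroblast-like class and 32.3 and 43.6 CPM in class 6, against 425 and 320.1 CPM in class 5. The other classes lay between, at 185 and 238 CPM in the chondrocyte-like class, 178 and 336 CPM in class 3 and 171 and 271 CPM in the tendon and ligament-like class. Ndufa4l2 passed the F test over all classes, while no single class passed, with a log2 fold change of -2.40 ± 0.38 in class 6 (edgeR adjusted p = 0.0876) and -1.71 ± 0.36 in the fibroblast-like class (adjusted p = 0.0632). The F test no longer passed without class 6 (adjusted p = 0.183), nor without the top well of each gene (0.0548), at resolution 0.5 of the clustering (0.0780), with wells assigned by marker score (0.0758) or with the skeletal and mural markers only (0.0745).

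Higd1a, a small protein of the inner mitochondrial membrane that supports respiration when oxygen is low, was also low in the fibroblast-like class and class 6. It was at 112 and 114 CPM in the fibroblast-like class and 111 and 112 CPM in class 6, against 613 and 596 CPM in the chondrocyte-like class, 547 and 694 CPM in class 3 and 761 and 619 CPM in class 5. In the tendon and ligament-like class the animals stood apart, at 112 and 419 CPM. Higd1a did not pass in any of these classes, with a log2 fold change of -1.82 ± 0.41 in the fibroblast-like class (edgeR adjusted p = 0.0772). Bnip3, which marks mitochondria for removal, was at 44.4 and 29.4 CPM in the fibroblast-like class, 251 and 221 CPM in the chondrocyte-like class, 206 and 188 CPM in class 3, 98.7 and 146 CPM in the tendon and ligament-like class, 264 and 192 CPM in class 5 and 35.5 and 0 CPM in class 6, where animal 2 had 0 counts, which allows up to 1.33 CPM. Bnip3 did not pass. Bnip3l, its relative in the same process, showed no such order: its range was 32.3 to 89.8 CPM over classes 1 to 6, and its adjusted p in the F test was 0.986.

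Oxygen sensors and secreted targets were sparse, with no edgeR call. Among classes 1 to 6 the fibroblast-like class was the lowest for neither sum in either animal. The 2 sensors summed there to 48.6 and 25.4 CPM in animals 1 and 2. The 5 secreted and other targets summed there to 57.9 and 97.4 CPM. Of the latter, class 5 held 121 and 79.9 CPM, class 3 47.6 and 68.99 CPM, and the chondrocyte-like class 53.1 and 48.7 CPM. The tendon and ligament-like class held 22.3 and 45.3 CPM, and class 6 held 32.7 and 11.6 CPM. Egln1, the main prolyl hydroxylase that reads oxygen, was seen in 10.3% of wells and ranged from 3.89 CPM in the chondrocyte-like class of animal 2 to 60 CPM in class 6 of animal 2, where animal 1 had 7.41 CPM. Egln3, a hydroxylase that HIF itself induces, had 165 counts in 0.766% of wells, and in classes 1 to 6 its counts lay in class 5 (8.84 and 9.94 CPM, from 1 well and 2 wells) and in 1 well of the fibroblast-like class of animal 2 (4.51 CPM). Vegfa, the growth factor that draws blood vessels, was at 53.7 and 46.8 CPM in class 5, 30.8 and 36.7 CPM in class 3, 19.0 and 51.6 CPM in the fibroblast-like class and 22.8 and 9.29 CPM in the chondrocyte-like class. The fibroblast-like class, whose animals differed most, overlapped each of the other 3, while class 5 lay above class 3 and class 3 above the chondrocyte-like class. Adm, a vessel-dilating peptide, was at 1.68 and 15.7 CPM in the fibroblast-like class and at or below 3.61 CPM in classes 2 to 6. Ndrg1, a stress-induced gene, was at 21.4 and 18.7 CPM in the fibroblast-like class, from 7 wells in each animal, and at 0 counts in both animals in class 6. Ddit4, an inhibitor of mTOR signalling, stayed at or below 12.3 CPM. Ankrd37, an ankyrin-repeat gene induced by low oxygen, was at 39.5 and 31.8 CPM in class 5 and 24.4 and 25.6 CPM in the chondrocyte-like class.

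The 3 largest fitted fold changes of each class belonged to sparse genes, and none passed. They were Adm, Slc16a3 and Egln3 in the fibroblast-like class, Aldoc, Eno2 and Egln3 in the chondrocyte-like class, Slc2a3, Aldoc and Adm in class 3 and in the tendon and ligament-like class, Egln3, Eno2 and Ndrg1 in class 5, and Ndrg1, Slc2a1 and Slc2a3 in class 6. Over all kept wells, the top well held 38.8% of Aldoc counts, 30.3% of Egln3, 29.4% of Adm, 29.0% of Slc2a3, 20.5% of Eno2, 14.2% of Ndrg1, 8.06% of Slc16a3 and 6.94% of Slc2a1. Aldoc, the brain-type aldolase, was at 6.86 and 30.3 CPM in the chondrocyte-like class, from 3 and 5 wells. Eno2, the neuronal enolase, was at 62.8 and 0.230 CPM in class 3. Their fitted folds rest on classes at or near 0 counts and are not printed.

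Osteoblast-like and pericyte and smooth muscle-like wells were left out of the test, since each had under 10 wells in an animal. In osteoblast-like wells the module stood at 2556 and 1651 CPM, and in pericyte and smooth muscle-like wells at 3332 and 5496 CPM. A fit of 8 classes, added after the data were seen, called 1 of 32 genes in the osteoblast-like class, where 1.48% of all genes were called, and 5 of 32 in the pericyte class, where 6.7% were called. Ndufa4l2 was the gene in common: it was at 46.3 and 19.2 CPM in osteoblast-like wells (log2 fold change -2.46 ± 0.49, edgeR adjusted p = 0.0370) and at 458 and 516.9 CPM in pericyte wells (1.59 ± 0.35, adjusted p = 0.0205). In animal 2 the top well held 70.8% of the Ndufa4l2 counts of osteoblast-like wells and 84.2% of those of pericyte wells. Higd1a was lower in pericyte wells, at 14.8 and 101.1 CPM (edgeR adjusted p = 0.0230), from 2 wells in each animal. Vegfa (adjusted p = 0.0403) and Egln1 (0.0473) had 0 counts in the 12 and 4 pericyte wells, which allows up to 3.17 and 5.83 CPM, and Bnip3 (0.0456) had 1 count. These limits are for counting error only. Over all kept wells Vegfa was seen in 13.2% and Egln1 in 10.3%, so 12 and 4 wells cannot show that either is absent.

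The rest of the pathway was read from lists of other genes. HIF subunits and regulators gave 0 calls of 9 in the edgeR test of every class (unadjusted p under 0.05 for 1, 2, 0, 0, 1 and 1 in classes 1 to 6; DESeq2 called 1, 0, 0, 0, 1 and 1). Hif1a, the alpha subunit that low oxygen stabilises, was at 62.5 and 117 CPM in the fibroblast-like class, 245 and 229 CPM in the chondrocyte-like class, 149 and 228 CPM in class 3, 87.8 and 179 CPM in the tendon and ligament-like class, 318 and 286 CPM in class 5 and 119 and 90.2 CPM in class 6. It did not pass, with a log2 fold change of -1.14 ± 0.34 in the fibroblast-like class (edgeR adjusted p = 0.176). Epas1, which encodes HIF-2 alpha, was at or below 26.5 CPM in classes 1 to 6 and at 181 and 564 CPM in the pericyte class.

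Other hypoxia-induced genes gave 2 calls of 20 tested in the fibroblast-like class, both lower, where 1.04% of all genes were called lower. They gave 1 in the chondrocyte-like class, higher, where 0.561% of all genes were, and 0 in classes 3 to 6. At an unadjusted p under 0.05 edgeR gave 4, 6, 3, 5, 2 and 4 in classes 1 to 6. The shares of all genes were 13.7%, 10.2%, 8.4%, 9.45%, 7.64% and 9.45%. DESeq2 called 3, 3, 1, 3, 1 and 3, where it called 5.99%, 4.28%, 3.47%, 4.32%, 2.11% and 6.27% of all genes with an adjusted p. Plod2, a lysyl hydroxylase that modifies collagen, was at 28.0 and 50.2 CPM in the fibroblast-like class (log2 fold change -2.19 ± 0.24, edgeR adjusted p = 0.00475) and at 280.5 and 267 CPM in the chondrocyte-like class (1.40 ± 0.18, adjusted p = 0.0153). The Plod2 calls were lost by marker score (0.160 and 0.114), with the skeletal and mural markers only (0.358 and 0.312) and with classes of at least 4 wells (0.255 and 0.0515), and the second also without class 6 (0.0562). Tfrc, the transferrin receptor that brings iron into the cell, was at 11.6 and 11.5 CPM in the fibroblast-like class against 247 ± 66.8 CPM in the others (-4.22 ± 0.44, adjusted p = 0.00416), and this call was lost by marker score (0.147), on variable genes (0.123) and with classes of at least 4 wells (0.104). Ldhb, the lactate dehydrogenase subunit that favours pyruvate, moved in the same direction as Ldha in the fibroblast-like class and as Eno1 in the chondrocyte-like class. It was at 27.6 and 40.3 CPM in the former (-1.51 ± 0.27, adjusted p = 0.0309) and at 150.0 and 208 CPM in the latter (1.54 ± 0.21, adjusted p = 0.0185), the 1 gene called among 12 of pyruvate oxidation and lactate use. Of all genes 1.04% were called lower in the former class and 0.561% higher in the latter. Both Ldhb calls were lost with the skeletal and mural markers only (0.537 and 0.286) and with classes of at least 4 wells (0.520 and 0.0945). The first was also lost on variable genes (0.101), with thinned wells (0.110), without the low-count filter (0.0665) and without the top well of each gene (0.0528). Pdk4, a fasting-induced kinase, was at or below 3.23 CPM in classes 1 to 6.

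Neighbouring routes of carbon showed no edgeR call. Side branches of glycolysis, such as the pentose phosphate route, had 0 of 12 tested genes called in every class (unadjusted p under 0.05 for 3, 1, 0, 0, 1 and 0 in classes 1 to 6; DESeq2 called 0). The citric acid cycle had 0 of 12 (unadjusted 1, 0, 1, 1, 0 and 2; DESeq2 called 1, in the tendon and ligament-like class, and 0 elsewhere). Dissociation and immediate-early genes had more calls. Of 22, 2 were lower in the fibroblast-like class (1.04% of all genes) and 5 higher in the chondrocyte-like class (0.561%). In class 3, 4 were higher (0.162%), and in the tendon and ligament-like class 3 were lower (0.0517%). Class 5 had 0 calls (0%), and class 6 had 1 lower (0.0369%). Hspa1a, a heat-shock chaperone, was at 132 and 118 CPM in the fibroblast-like class, 588 and 445 CPM in the chondrocyte-like class and 1022 and 652 CPM in class 3. Ier2, an immediate-early gene, was at 523 and 601 CPM, 1252 and 2207 CPM, and 2271 and 2229 CPM in the same 3 classes. In classes 4, 5 and 6 Hspa1a was at 120 and 75.5 CPM, 475 and 517 CPM, and 193 and 128 CPM. Ier2 was there at 410 and 549 CPM, 1098 and 1306 CPM, and 364 and 517 CPM. Hspa1a and Ier2 were the 2 genes called lower in the fibroblast-like class. Their log2 fold changes there were -1.44 ± 0.19 (edgeR adjusted p = 0.0103) and -0.92 ± 0.14 (0.0187). The tendon and ligament-like class was the lowest for Hspa1a in both animals, and class 6 for Ier2. The part of such genes in the module's differences was not tested.

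Within classes, the genes rose and fell together from well to well only loosely. Spearman's rho between genes was computed over the wells of 1 class and 1 animal, for 66 pairs of 12 genes that were widely seen in all 12 such sets. The median over sets was above 0 in 66 of 66 pairs and above 0.3 in 21, with a median of 0.25 over pairs. Ndufa4l2 and Higd1a had the highest value, 0.46, followed by Gapdh and Ldha and by Fam162a and Higd1a, both at 0.41. Bnip3l was in the lowest pairs, such as 0.0020 with Eno1. The wells of a set share a library and PCR, and depth differs between wells, so these values are a description. Pairs of other genes were not measured, so whether such values are particular to these genes was not tested.

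**Figure D4:**
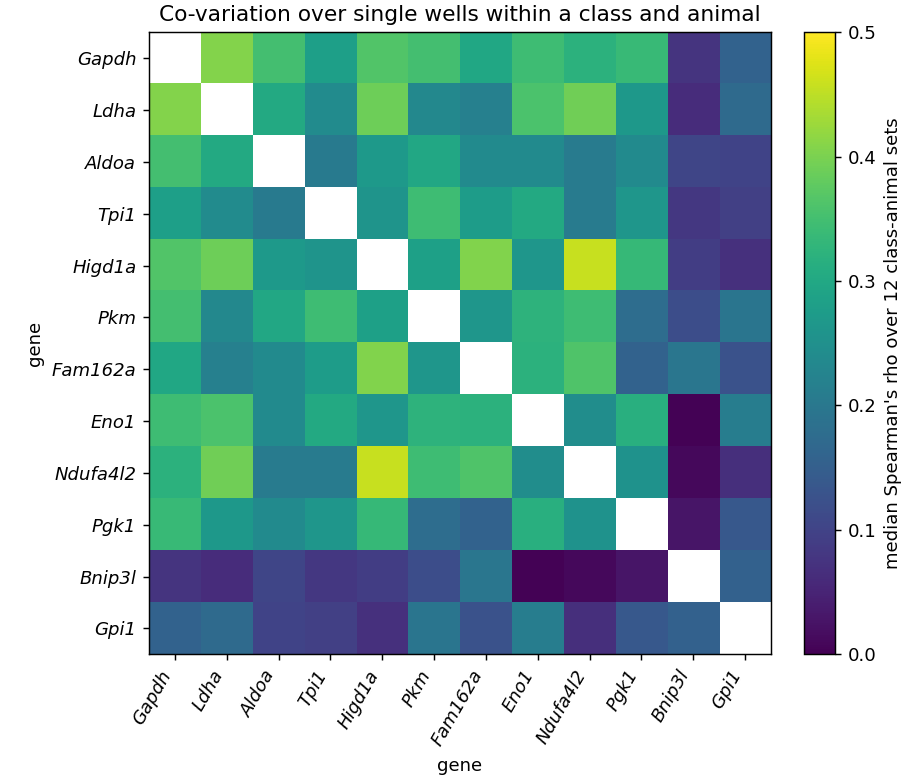
Median Spearman's rho between pairs of 12 genes (both axes) over wells of 1 class and 1 animal, as colour, over 12 class and animal sets. The brightest pair is Ndufa4l2 with Higd1a at 0.46, and the rows of Bnip3l and Gpi1 are the darkest.

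Over all kept wells the module stood at 3521 CPM in animal 1 and 4239 CPM in animal 2. Eno1 was at 110 and 161 CPM, Ldha at 517 and 673 CPM, Bnip3 at 132 and 139 CPM and Bnip3l at 65.1 and 59.5 CPM in animals 1 and 2. With 1 plate per animal and no replicate of either, these values have no test.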

How the data were processed

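Single GFP-positive cells from the femurs of 2 animals were profiled in plates, with template-switching cDNA, PCR and Nextera XT libraries, per the labels' protocols. The authors deposited 1 table of whole-number counts per gene and well; build mm10 and CASAVA are named in the submitters' processing notes. The sources used here name no aligner or annotation and do not say whether duplicates were collapsed, so a count was not read as a molecule. The 32 genes and all lists were chosen with earlier results of these data known.

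Kept wells had 500 or more genes and no more than 20% mitochondrial counts. They were clustered on 116 marker genes of 17 lists (20 components, 15 neighbours, Leiden resolution 1, leidenalg 0.10.2) and named when at least 3 markers of the leading list were raised and the list reached 1000 CPM, a minimum set after seeing the data. No doublet caller was run, since cells were sorted singly. Which wells hold more than 1 cell was not tested. Counts were summed per class and animal for classes with at least 10 wells in each animal. Contrasts set each class against the average of the other 5 in 1 edgeR 4.0.16 quasi-likelihood fit (R 4.3.3, TMM, filterByExpr, animal as a block since both animals gave every class, residual degrees of freedom 5), adjusted by Benjamini-Hochberg over 13552 genes at a threshold of 0.05. The ± beside a fold change is its standard error, and it is taken against the geometric mean of the classes; CPM are scaled to the total and set against their plain mean, with SD over n = 2 animals. The limit that 0 counts allow is 3 counts, for counting error only, and it takes no account of differences between wells. Marker genes were left out of the tests. Scripts were tested on simulated data, with 50 genes changed at each size in 1 class. At log2 fold changes of 2 and 4 the test called 12 and 38 of 50. At -2 and -4 it called 1 and 6 of 50. Decreases were thus rarely called, and a gene without a call may still differ. Alternatives were DESeq2 1.42.0, other scaling, filters, clusterings and thinning to 20000 counts per well. A cluster of another clustering took the number of the main class that shared most wells with it, where that number was free.

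Named were genes past the threshold in any class or over all classes, the 3 largest fold changes per class, at most 4 called genes per other list, and Hif1a, Epas1, Ldhb and Pdk4. Promoter windows came from RefSeq and gene positions from GENCODE M21.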

Additional observations from a re-analysis of the deposited data

How the results depend on the processing

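The count of called genes among the 32 depended on the setting. It was 3 in the fibroblast-like class, 1 in the chondrocyte-like class and 0 in classes 3 to 6, and over all classes 4. In the fibroblast-like class it was 9 at Leiden resolution 0.5 and with DESeq2, 8 with wells thinned to equal counts, 7 with clustering on variable genes and without class 6, 6 with a second seed, 5 without the top well of each gene, and 0 with classes of at least 4 wells. In the chondrocyte-like class it was 3 at resolution 0.5, by marker score and with DESeq2, 2 thinned, 5 on variable genes and 0 with classes of at least 4 wells. Thinning gave 2 each in classes 3, 5 and 6, variable genes gave 5 in class 5 and 1 in class 6, and DESeq2 gave 2, 1, 3 and 5 in classes 3 to 6. Over all classes the count was 8 thinned, 9 on variable genes, 7 with a second seed and 2 with classes of at least 4 wells. Over all genes the count in the fibroblast-like class moved too, from 113 to 654, and the edgeR settings tested 10114 to 23781 genes. For classes 1 to 6 the share of all genes called is given only for the main fit and DESeq2. The changes are therefore no result about the 32 genes. The cause of these changes was not tested. Other clusterings hold other wells under the same class number. On variable genes class 5 had 19 and 24 wells, 28 of them from the main class 5. Class 3 had 64 and 121 wells at resolution 0.5, with 104 from the main class 3. By marker score it had 39 and 74 wells, with 56 from the main class 3. The fit held 4 classes at resolution 0.5 and 7 on variable genes, so the contrasts differ too. The fit with classes of at least 4 wells, the second seed, the skeletal and mural markers, and the fits without the top well or class 6 were chosen after seeing the data. Settings that ended the calls of Fam162a, Ldha, Pkm, Eno1, Ndufa4l2, Plod2, Tfrc and Ldhb are given beside each; over 14 alternatives the adjusted p ranged from 6.07e-10 to 0.236 for Fam162a, 0.000474 to 0.326 for Ldha, 4.83e-08 to 0.302 for Pkm and 0.000567 to 0.0692 for Eno1, with the direction kept in each, and in each animal alone.

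Among genes of the other lists the counts were 5, 7, 4, 3, 0 and 1 in classes 1 to 6. They were 11, 12 and 1 in classes 1 to 3 at resolution 0.5, 1, 3, 0 and 0 in classes 1 to 4 by marker score, 12, 10, 6, 2 and 7 in classes 2 to 6 thinned, and 10, 15, 11, 10, 4 and 18 with DESeq2. On variable genes they were 1, 1, 1 and 0 in classes 1, 4, 5 and 6. With classes of at least 4 wells they were 0, 3, 0 and 0 in classes 1, 2, 4 and 6, with skeletal and mural markers 1, 1 and 0 in classes 1, 4 and 6, with a second seed 1 and 0 in classes 4 and 6, and without class 6, 8 and 4 in classes 1 and 2. Class 6 had 0 without the top well of each gene and with no replicate block, the setting in which Ldha was also not called (adjusted p = 0.184). Over all genes the counts ranged from 113 to 654, 91 to 445, 0 to 361, 6 to 472, 0 to 247 and 10 to 586 in classes 1 to 6.

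The module's log2 ratio in the tendon and ligament-like class moved from -0.47 to 0.000475, practically no difference, with wells assigned by marker score. In the fibroblast-like class it was -1.23 without the 6 abundant enzymes, -0.998 as a mean over wells, -0.98 thinned, -0.99 without Vegfa, Adm, Ddit4 and Ndrg1, and -0.83 by marker score. In the chondrocyte-like class it was 0.49 without the 6 enzymes, 0.34 as a mean over wells and 0.31 thinned. Class 3 gave 0.54 without the 6 enzymes and 0.38 by marker score, and class 6 gave -1.27, -0.54 as a mean over wells and -0.55 thinned. The share of promoter windows was 43.9% for ACGTG alone. The median log2 fold change of all genes in the fibroblast-like class moved from 0.31 to 0.70 with classes of at least 4 wells. With 2 animals the spread of each class is borrowed from all classes, and wells of small classes decide sparse genes.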
